A study of Mus musculus with 4 samples.

Results

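Basophils and mast cells arise in the bone marrow, carry the high-affinity receptor for IgE on their surface, and store proteases and histamine in granules that they empty when this receptor is crosslinked. A set of 10 genes known for these cells was read out of the 16375 genes listed for bone marrow-derived macrophages (BMDMs), by gene symbol alone, and all 10 were found. The set holds the granule proteases Mcpt8, Prss34 and Cpa3, the IgE receptor chains Ms4a2 and Fcer1a, the transcription factor Gata2, the histamine-forming enzyme Hdc, the receptors Kit and Il1rl1, and the activating receptor Cd200r3.

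BMDMs were grown from mouse bone marrow cells with M-CSF, the growth factor that drives macrophage formation, and RNA was sequenced in 4 groups with 1 library each. WT control and WT butyrate came from C57BL/6 wild-type mice, and LNCKO control and LNCKO butyrate from mice in which CRISPR-Cas9 had removed both exons of the long non-coding RNA gene lncLy6c. Butyrate, a short-chain fatty acid made by gut bacteria, was given at 500 µM for 24 h. The methods give an age of 4 to 6 weeks and either sex for the C57BL/6 mice that were obtained. They place the lncLy6c-deficient mice on a C57BL/6J background. The age and sex of the mice behind each culture and the number of mice per culture were not given in the sources used here, and nothing states that the cells were sorted. Each LNCKO value depends on the sample titles being right, since the library names of the LNCKO samples do not spell the condition and lncLy6c itself was not analysed here.

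Marrow cultures can hold basophils and mast cells as well as their progenitors. GATA2 is the transcription factor that sets up both lineages, with GATA sites in the control regions of many of their genes. KIT, the stem cell factor receptor, is kept by mature mast cells and by early progenitors of many lineages, whereas mouse basophils carry little of it. Mcpt8 and Prss34 encode the basophil proteases mMCP-8 and mMCP-11, and Cpa3 encodes the mast cell carboxypeptidase, which basophils and their precursors also express.

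The promoters of 5 of the genes are shown because these genes gave the largest ratios between libraries or the highest level, and because GATA2 is one of the set. The sequences are from RefSeq (GRCm38.p6), 300 bases each, 5′ to 3′ on the gene's strand, from 250 bases before the start site, and capitals mark the GATA words searched on both strands (the word AGATAA, the word AGATAG and the same pair beginning with T in place of A).
Mcpt8, chr14:56085148-56085447, - strand: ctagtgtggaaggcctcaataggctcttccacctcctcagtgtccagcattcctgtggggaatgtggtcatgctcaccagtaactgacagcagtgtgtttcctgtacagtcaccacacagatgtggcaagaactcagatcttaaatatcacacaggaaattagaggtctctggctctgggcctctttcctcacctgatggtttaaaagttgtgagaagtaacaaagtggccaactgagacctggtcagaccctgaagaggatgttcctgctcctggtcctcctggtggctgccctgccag
Prss34, chr17:25298144-25298443, + strand: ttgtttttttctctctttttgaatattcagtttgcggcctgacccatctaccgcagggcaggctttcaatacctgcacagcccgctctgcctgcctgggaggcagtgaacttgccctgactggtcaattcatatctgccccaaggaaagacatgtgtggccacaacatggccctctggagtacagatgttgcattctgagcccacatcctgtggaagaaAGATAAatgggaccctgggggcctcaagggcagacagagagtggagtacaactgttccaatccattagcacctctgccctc
Cpa3, chr3:20242132-20242431, - strand: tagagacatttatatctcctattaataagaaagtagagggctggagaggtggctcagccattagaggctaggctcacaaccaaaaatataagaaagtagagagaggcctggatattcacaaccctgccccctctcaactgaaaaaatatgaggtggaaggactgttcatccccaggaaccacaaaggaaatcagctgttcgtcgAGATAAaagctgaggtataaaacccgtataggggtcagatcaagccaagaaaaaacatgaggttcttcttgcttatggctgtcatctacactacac
Ms4a2, chr19:11623670-11623969, - strand: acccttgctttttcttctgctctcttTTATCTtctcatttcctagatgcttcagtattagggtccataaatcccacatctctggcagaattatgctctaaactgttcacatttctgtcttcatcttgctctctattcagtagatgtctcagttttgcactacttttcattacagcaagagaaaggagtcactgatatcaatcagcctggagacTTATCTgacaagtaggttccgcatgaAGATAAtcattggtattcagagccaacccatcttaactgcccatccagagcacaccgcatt
Cd200r3, chr16:44943428-44943727, + strand: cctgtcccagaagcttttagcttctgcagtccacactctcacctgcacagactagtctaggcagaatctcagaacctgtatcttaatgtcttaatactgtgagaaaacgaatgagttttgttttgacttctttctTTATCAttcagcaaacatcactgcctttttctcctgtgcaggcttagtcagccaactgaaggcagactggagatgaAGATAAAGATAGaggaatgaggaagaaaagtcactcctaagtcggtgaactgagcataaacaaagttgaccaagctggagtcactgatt

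In RefSeq, all 10 genes had at least 1 promoter and 13 were listed in all. A GATA word was found in 8 of the 13 promoters, against 29.8% of the 32851 mouse promoters of the same length. These 8 promoters belonged to 7 of the 10 genes. Within the 50 bases before the start site, 4 genes, each with 1 promoter listed, held a GATA word, against 5.32% of all promoters. These were Prss34, whose word begins 31 bases before the start, Cpa3 at 46 bases, Ms4a2 at 37 and 11 bases, and Cd200r3 with adjoining words at 39 and 33 bases. None was found in the windows of Mcpt8, Gata2 and Kit. The share of G and C was 38.7% to 52.0% in the promoters with a GATA word. It was 51.0% in that of Mcpt8 and 69.0% to 73.7% in those of Gata2 and Kit. The shares over all promoters were not matched for base composition. The word TGTGGT, the core of RUNX sites, was found on either strand in 4 of the 13 promoters, including 2 matches in Mcpt8, against 16.8% of all promoters, and no match overlapped another. A match of letters is a description of the window and not a binding site.

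Levels are given as fpm, the number of sequenced fragments of a gene per 1000000 fragments of its library, recovered from the deposited FPKM values. The library totals ranged from 53363944 to 65521713 fragments. Where 4 values follow each other, they stand for WT without and with butyrate and then for LNCKO without and with butyrate. Intervals are 95% intervals of counting error. Each group being a single library, the spread between replicates is unknown and no test was made. Of the 10 genes, 9 had a mean of at least 1 fpm over the 4 libraries and so were among the 11738 genes counted below. Fcer1a, at a mean of 0.557 fpm, was not. In RNA from a whole culture, fewer basophils or mast cells and less RNA per cell cannot be told apart.

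Per kilobase of exon, the order of the mean levels was led by Prss34 at 66.1 fpm per kb, followed by Mcpt8 at 21.9, Cpa3 at 12.0 and Hdc at 10.8 fpm per kb. Ms4a2 (3.83), Kit (3.72) and Gata2 (2.98) followed, and Cd200r3 (1.26), Il1rl1 (0.890) and Fcer1a (0.558) were lowest. The granule proteases and the histamine enzyme thus stood above the receptors. The order of Ms4a2, Kit and Gata2 changed between libraries. In WT butyrate, Hdc (12.8) stood above Mcpt8 (9.21) and Cpa3 (6.74).

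Of the mast cell chymase and tryptase genes, those read were at or near 0 in the same libraries. Mcpt4, Cma2 and Mcpt9 had 0 fragments in all 4 libraries, which allows up to 3 fragments or 0.0458 to 0.0562 fpm per library. Tpsb2, a tryptase of connective tissue mast cells, had 20 fragments in WT butyrate and 0 in the other libraries, and the tryptase Tpsg1 had 7 fragments there and 0 elsewhere. Mcpt1, Mcpt2, Cma1 and Tpsab1 were not analysed here. Of the genes described, the basophil proteases were therefore present without the mast cell chymases analysed, and the genes are called here by their names rather than by a cell type.

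**Figure D1:**
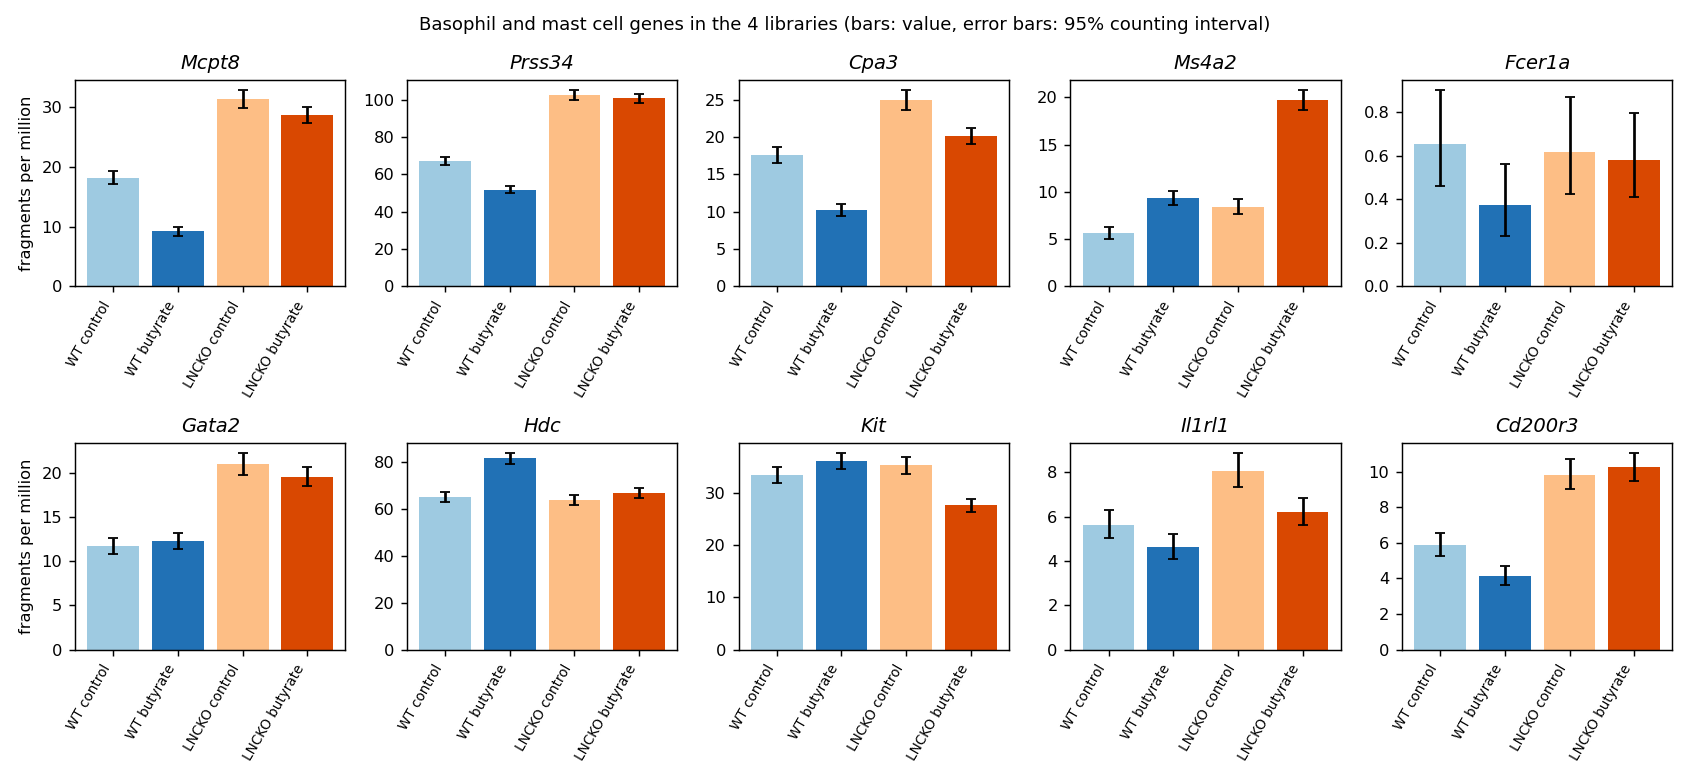
Level of each of the 10 genes in the 4 libraries, in fragments per 1000000 fragments (fpm), on an axis of its own for each gene. Bars give the value of 1 library and error bars its 95% counting interval. Mcpt8, Prss34, Cpa3, Gata2, Il1rl1 and Cd200r3 stand higher in both LNCKO libraries than in both WT libraries, Ms4a2 is highest in LNCKO butyrate, and Hdc is highest in WT butyrate.

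Among the granule proteases, all 3 were lowest in WT macrophages with butyrate and highest in LNCKO control, although for Prss34 the LNCKO libraries differed by less than counting error. Mcpt8 (ENSMUSG00000022157), on the minus strand of chromosome 14 of GRCm38 from 56082166 to 56085273, was at 18.2 fpm without and 9.19 with butyrate in WT, and at 31.4 without and 28.7 with butyrate in LNCKO. These values rest on 1025, 544, 1676 and 1880 fragments. With butyrate, Mcpt8 was at 0.506 times its control level in WT (interval 0.455 to 0.562) and at 0.914 times in LNCKO (0.855 to 0.976). The ratio in WT lay just inside a 2-fold difference, and that in LNCKO was nearer to 1. The microRNA gene Mir6949 lies within the Mcpt8 span.

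Prss34 (ENSMUSG00000056399), on the plus strand of chromosome 17 from 25298394 to 25300165, had the highest level of the set, with 67.3 fpm without and 51.9 with butyrate in WT, and 103 without and 101 with butyrate in LNCKO. Its ratio of butyrate to control was 0.771 in WT (0.735 to 0.809) and 0.982 in LNCKO (0.947 to 1.02), the latter not apart from 1 by counting error. The WT libraries lay below the LNCKO libraries under both treatments. Cpa3 (ENSMUSG00000001865), on the minus strand of chromosome 3 from 20215620 to 20242181, was at 17.6, 10.2, 25.0 and 20.1 fpm. Its ratio of butyrate to control was 0.582 in WT (0.525 to 0.645) and 0.806 in LNCKO (0.746 to 0.870). Cpa3 was thus lower with butyrate in both genotypes, and the ratio in WT was the lower of the pair. The microRNA gene Mir7007 lies within the Cpa3 span.

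Of the IgE receptor chains, Ms4a2 was higher with butyrate, unlike the proteases, and Fcer1a was lower in WT. Ms4a2 (ENSMUSG00000024680), which encodes the beta chain that amplifies the receptor's signal, lies on the minus strand of chromosome 19 from 11615523 to 11623719. It was at 5.604 fpm without and 9.33 with butyrate in WT, and at 8.41 without and 19.7 with butyrate in LNCKO, from 316, 552, 449 and 1292 fragments. Ms4a2 was higher with butyrate in both genotypes, 1.66-fold in WT (1.45 to 1.92) and 2.34-fold in LNCKO (2.103 to 2.62). Of the 50-base words in its exons, 2.098% also occur in its neighbour Ms4a4b, which was at 30.8, 55.5, 39.2 and 39.5 fpm in the same order. Ms4a4b was higher with butyrate in WT and nearly level in LNCKO, where Ms4a2 had its largest ratio.

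Fcer1a (ENSMUSG00000005339), on the minus strand of chromosome 1 from 173221284 to 173227214, encodes the alpha chain that binds IgE and was close to the detection limit. Its values rest on 37, 22, 33 and 38 fragments. Its butyrate ratio of 0.566 in WT, on the side of the proteases, had an interval from 0.318 to 0.986, and that of 0.938 in LNCKO one from 0.573 to 1.54. Fcer1g, the signalling gamma chain that macrophages also use for IgG receptors, was at 499 to 533 fpm in the 4 libraries. A difference of Fcer1a between the genotypes was not detectable at this depth.

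Gata2 (ENSMUSG00000015053), on the plus strand of chromosome 6 from 88193891 to 88207032, differed by genotype and not detectably by butyrate. It was at 11.7 fpm without and 12.2 with butyrate in WT, and at 21.0 without and 19.6 with butyrate in LNCKO. The butyrate ratio was 1.05 in WT (0.943 to 1.17) and 0.933 in LNCKO (0.861 to 1.01), and both intervals hold 1. LNCKO stood above WT under both treatments, 1.80-fold without butyrate (1.63 to 1.98) and 1.60-fold with it (1.46 to 1.75).

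Hdc (ENSMUSG00000027360), on the minus strand of chromosome 2 from 126593667 to 126619299, encodes histidine decarboxylase, the enzyme that makes histamine. It was at 64.9 fpm without and 81.5 with butyrate in WT, and at 63.7 without and 66.7 with butyrate in LNCKO. Hdc was 1.26-fold higher with butyrate in WT (1.20 to 1.31) and 1.05-fold higher in LNCKO (1.00 to 1.10). Without butyrate the genotypes were level, at a ratio of LNCKO to WT of 0.982 (0.937 to 1.03). Hdc was thus higher with butyrate in the WT cultures in which the granule proteases were lower.

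Kit and Il1rl1 encode surface receptors for stem cell factor and for the alarmin IL-33. Kit (ENSMUSG00000005672), on the plus strand of chromosome 5 from 75574916 to 75656722, was at 33.5 fpm without and 36.2 with butyrate in WT, and at 35.3 without and 27.7 with butyrate in LNCKO. Its butyrate ratio was 1.08 in WT (1.01 to 1.15) and 0.784 in LNCKO (0.734 to 0.836). LNCKO butyrate was the lowest of the 4 libraries for Kit. Il1rl1 (ENSMUSG00000026069), on the plus strand of chromosome 1 from 40429570 to 40465415, was at 5.64, 4.63, 8.08 and 6.20 fpm. Its butyrate ratio was 0.821 in WT (0.696 to 0.968) and 0.767 in LNCKO (0.668 to 0.881). Il1rl1 was thus lower with butyrate by a like ratio in both genotypes, and the intervals of the ratios overlapped.

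Cd200r3 (ENSMUSG00000036172) encodes an activating receptor of the CD200 receptor family that basophils and mast cells carry, and lies on the plus strand of chromosome 16 from 44943678 to 44981380. It was at 5.89 fpm without and 4.14 with butyrate in WT, and at 9.84 without and 10.3 with butyrate in LNCKO. Its butyrate ratio was 0.703 in WT (0.594 to 0.832) and 1.04 in LNCKO (0.929 to 1.17). Of the 50-base words in its exons, 2.79% also occur in other genes, which leaves its counts somewhat less certain than those of the proteases, for which the share was 0%.

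**Figure D2:**
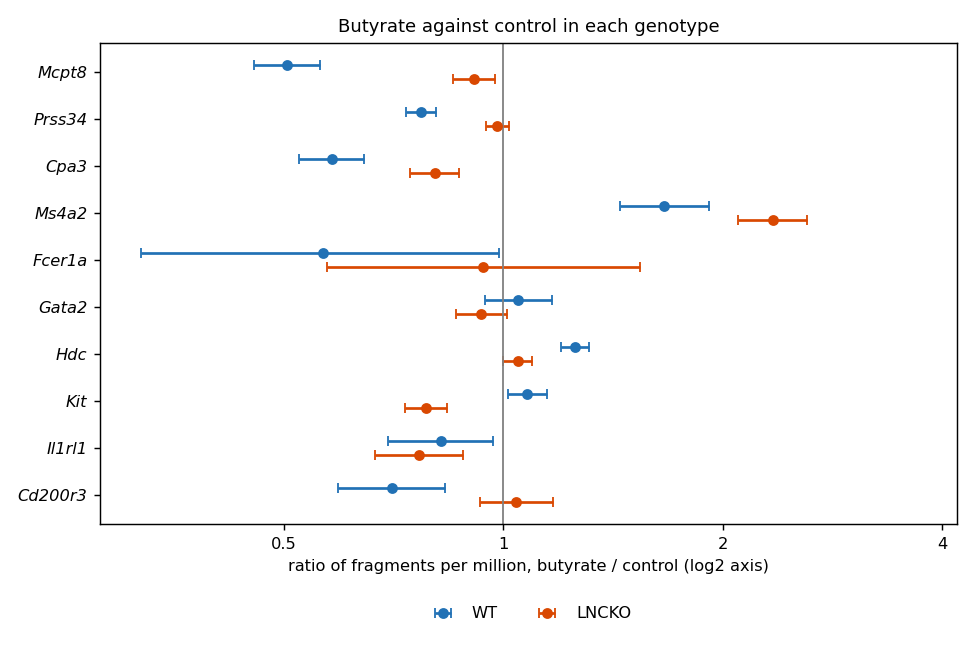
Ratio of butyrate to control for each gene, on a log2 axis, in WT (blue) and LNCKO (orange), with 95% counting intervals and a grey line at 1. Mcpt8, Cpa3, Prss34 and Cd200r3 lie below 1 in WT and nearer to 1 in LNCKO, Ms4a2 lies above 1 in both, and Kit lies above 1 in WT and below 1 in LNCKO.

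Counted over the set, butyrate in WT macrophages left 0 of 9 genes past 2-fold upward and 0 past 2-fold downward, where 1.41% and 0.818% of all genes counted were past these bounds. At 1.5-fold, a bound added after the values had been seen, 1 gene (Ms4a2) was higher and 2 (Mcpt8 and Cpa3) were lower, beside 4.24% and 3.27% of all genes. The median log2 change of the 9 genes was -0.28, with 4 above and 5 below 0. Over all 11738 genes counted the median was -0.05, with 4686 above and 7052 below 0. In LNCKO macrophages butyrate brought 1 gene, Ms4a2, at least 2-fold higher and 0 lower, beside 0.843% and 0.417% of all genes. At 1.5-fold the counts were again 1 and 0, beside 2.25% and 1.33%. The median was -0.10, with 3 above and 6 below 0, beside -0.02 over all genes, with 4993 above and 6744 below 0. The proteases and Ms4a2 lay on opposite sides of 0 in both genotypes, so the median describes neither.

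The change with butyrate in WT less that in LNCKO, on the log2 scale, was -0.85 for Mcpt8, -0.56 for Cd200r3, -0.49 for Ms4a2, -0.46 for Cpa3 and -0.35 for Prss34. It was 0.10 for Il1rl1, 0.17 for Gata2, 0.26 for Hdc and 0.46 for Kit. Fcer1a, which was not counted, was at -0.60. The median over the 9 genes was -0.35, beside -0.03 over all genes. This difference between genotypes was not tested, since each group holds 1 library. The 5 of 9 values on the negative side were those of the 3 proteases, the receptor beta chain and Cd200r3. Over all genes, 6596 of 11738 were on this side, a like share. Ms4a2 was on this side with a rise in both genotypes, of 0.72 in WT and 1.22 in LNCKO.

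Between the genotypes, 7 of the 9 genes were higher in LNCKO than in WT under both treatments, and the exceptions were Hdc and Kit. Of all 11738 genes counted, 6555 were higher in LNCKO without butyrate and 7032 with it. How many of these were higher under both treatments was not counted. Without butyrate, the ratios of LNCKO to WT were 1.80 for Gata2, 1.73 for Mcpt8 (1.60 to 1.87), 1.67 for Cd200r3 (1.45 to 1.92), 1.53 for Prss34 (1.47 to 1.59), 1.502 for Ms4a2 (1.30 to 1.74), 1.43 for Il1rl1 (1.24 to 1.66) and 1.42 for Cpa3 (1.31 to 1.55). These 7 ratios all had intervals above 1. Kit was at 1.05 (0.989 to 1.12), with an interval that holds 1, as did that of Hdc.

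With butyrate, the spread was wider. Mcpt8 was 3.12-fold higher in LNCKO than in WT (2.84 to 3.44), Cd200r3 2.48-fold (2.14 to 2.88), Ms4a2 2.11-fold (1.91 to 2.34), Cpa3 1.97-fold (1.79 to 2.171), Prss34 1.94-fold (1.86 to 2.03) and Il1rl1 1.34-fold (1.15 to 1.57). Hdc was lower in LNCKO, at a ratio of 0.818 (0.785 to 0.853), and so was Kit, at 0.765 (0.719 to 0.815). Both comparisons between genotypes use the libraries of the butyrate comparisons, so the 4 sets of ratios are not independent of each other.

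**Figure D3:**
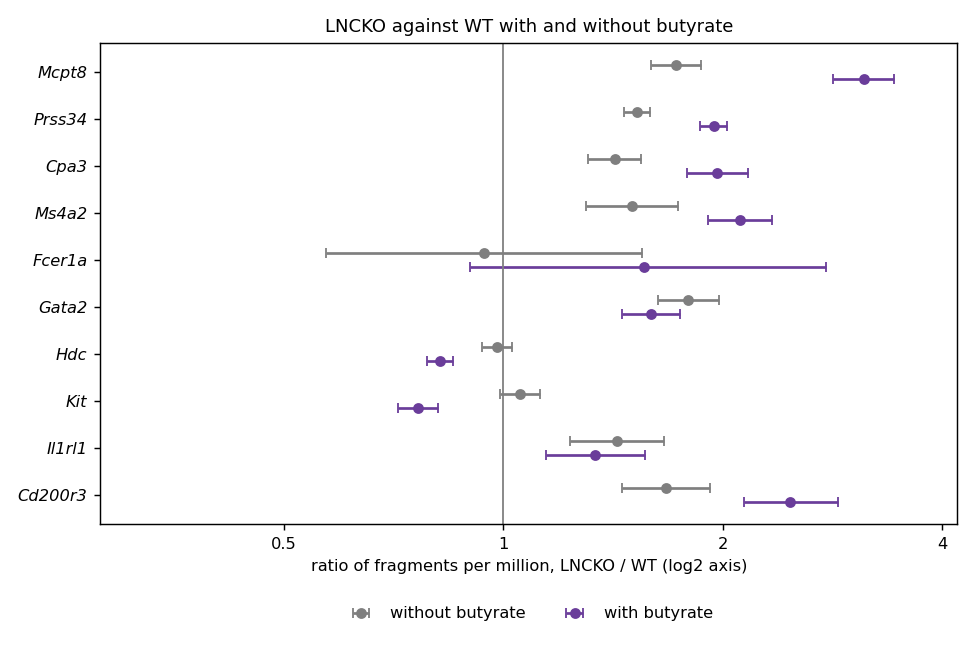
Ratio of LNCKO to WT for each gene, on a log2 axis, without butyrate (grey) and with butyrate (purple), with 95% counting intervals and a grey line at 1. For Mcpt8, Cd200r3, Ms4a2, Cpa3 and Prss34 the ratio with butyrate lies to the right of that without, and Hdc and Kit lie below 1 with butyrate.

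Of the 9 genes counted, 0 were past 2-fold upward and 0 downward in LNCKO against WT without butyrate, beside 0.665% and 0.988% of all genes. At 1.5-fold, 4 (Gata2, Mcpt8, Cd200r3 and Prss34) were higher and 0 lower, beside 2.14% and 2.52%. Ms4a2, with a ratio of 1.502, fell just short of this bound on the scale with 0.1 fpm added. With butyrate, 3 (Mcpt8, Cd200r3 and Ms4a2) were at least 2-fold higher and 0 lower, beside 1.14% and 1.35% of all genes, and at 1.5-fold 6 were higher and 0 lower, beside 3.82% and 4.08%. The median log2 difference was 0.58 without and 0.96 with butyrate, beside 0.02 and 0.05 over all genes.

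Genes of other cells differed between the same libraries. The Y-linked genes Ddx3y, Eif2s3y, Kdm5d and Uty summed to 3.60 and 2.23 fpm in WT control and WT butyrate and to 288 and 308 fpm in LNCKO control and LNCKO butyrate, so genotype and the sex of the donor mice cannot be told apart. Of 8 stromal genes, led by collagens, 4 were past 2-fold downward and 0 upward in LNCKO against WT without butyrate, with summed levels of 239, 223, 71.6 and 147 fpm in the 4 libraries. Of 4 erythroid genes counted, 3 were past 2-fold upward in LNCKO against WT under both treatments, and their list summed to 11.03, 10.6, 28.5 and 69.0 fpm. Summed levels of the progenitor list ranged from 226 to 247 fpm and of the eosinophil list from 95.1 to 144 fpm, with the lowest eosinophil sum in LNCKO butyrate. Megakaryocyte genes summed to 108 to 182 fpm and genes of immature neutrophils to 3548 to 4087 fpm. T cell and innate lymphoid genes summed to 211 to 249.3 fpm. Of the 9 of them counted, 2 (Cd3e and Cd3g) were at least 2-fold higher in LNCKO than in WT under butyrate and 0 lower. Without butyrate 1 (Cd3e) was higher and 0 lower. Cd3e had 43, 20, 101 and 110 fragments in the 4 libraries, and Cd3g had 54, 41, 74 and 197. Macrophage genes, which mark the labelled cell type, summed to 9867 to 20675 fpm, of which Lyz2 made up most of the range, and the other 9 summed to 5525 to 6346 fpm. No gene of these lists was at 0 in all 4 libraries. Whether these differences have a part in the values of the basophil and mast cell genes was not tested.

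Other genes of the same pathways were counted in lists. Depending on the comparison and direction, 0.417% to 1.41% of all genes counted were past 2-fold. Counts of 0 in lists this short therefore do not set them apart from all genes. In signalling from the IgE receptor, 19 genes were counted, with a median log2 change of -0.11 with butyrate in WT and 0 past 2-fold in either direction. In LNCKO the median was -0.01, again with 0 past 2-fold. Under butyrate, 1 of the 19 was at least 2-fold higher in LNCKO than in WT. This was Lat, the adaptor that links the receptor to calcium signalling, at 1.01 fpm in WT butyrate and 3.11 fpm in LNCKO butyrate. These values rest on 60 and 204 fragments, so Lat was a gene of low level. Its ratio was 3.07, and Cd3e and Cd3g of the T cell list had larger ratios in the same comparison, at 4.97 and 4.34. Whether these differences go together was not tested.

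Of 17 transcription factors of these lineages counted other than Gata2, 0 were past 2-fold in any of the 4 comparisons. Gata1 was at 1.72, 1.72, 2.53 and 1.98 fpm. Mitf, a regulator of mast cell genes that macrophages also express, was at 76.6, 61.9, 76.2 and 80.3 fpm. Neither stood apart between the genotypes as far as Gata2 did, but other factors came near it or passed it under 1 treatment. Hes1 was at 1.66 times its WT level in LNCKO with butyrate and at 0.835 times without. Tal1 was at 1.58 times without butyrate and at 0.853 times with it. Gata3, below the bound for counting, had 11, 3, 25 and 35 fragments in the 4 libraries.

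Of 11 other surface markers counted, 0 were past 2-fold with butyrate in either genotype. Ccr3, the eotaxin receptor of eosinophils and basophils, was at 17.4, 9.11, 20.3 and 13.8 fpm, and Cd244a, a receptor of the SLAM family, at 16.7, 11.4, 19.9 and 18.3 fpm. Both were lowest in WT butyrate and highest in LNCKO control, as were 5 of the 11 markers in all. The same order was found in 4 of the 9 genes of the set, 7 of the 19 IgE receptor signalling genes and 2 of the 17 transcription factors. How many of all genes had this order was not counted. Another 5 of the 11 surface markers were highest in WT butyrate, among them Siglecf, at 7.84, 12.4, 8.66 and 7.05 fpm, and Cd34, at 20.9, 29.3, 22.1 and 20.2 fpm. Itga2, the CD49b chain used to gate basophils, was at 1.60, 1.03, 1.84 and 2.67 fpm and was at least 2-fold higher in LNCKO than in WT under butyrate.

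Of 12 receptors for growth factors and alarmin cytokines, 0 were past 2-fold in any comparison. Il3ra, the receptor chain for IL-3, the main growth factor of basophils, was at 37.9 to 48.3 fpm. Of 10 genes of histamine and lipid mediators counted, 0 were past 2-fold with butyrate in either genotype. Ptgs2, the inducible prostaglandin synthase, was at 15.1, 16.5, 25.5 and 37.1 fpm and was at least 2-fold higher in LNCKO than in WT under butyrate. Slc18a2, the transporter that loads histamine into granules, was at 7.40 to 9.36 fpm and did not follow Hdc.

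Of the cytokines known to act on or come from these cells, 4 were counted. Il6 was at 2.59, 1.39, 5.32 and 5.07 fpm and was at least 2-fold higher in LNCKO under both treatments. Il4, a cytokine that basophils release, had 32, 32, 60 and 63 fragments in the same order. It was below the bound for counting, and its LNCKO values were the higher under both treatments. Of the 4 other granule genes counted, Ctsg and Gzmb encode proteases, Srgn the proteoglycan that packs them and Serpinb1a a protease inhibitor. Gzmb, encoding granzyme B, was the only 1 of them past 2-fold, with 3.09, 2.21, 10.2 and 3.98 fpm. Without butyrate it was at 3.32 times its WT level in LNCKO. In LNCKO it was at 0.389 times its control level with butyrate.

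**Figure D4:**
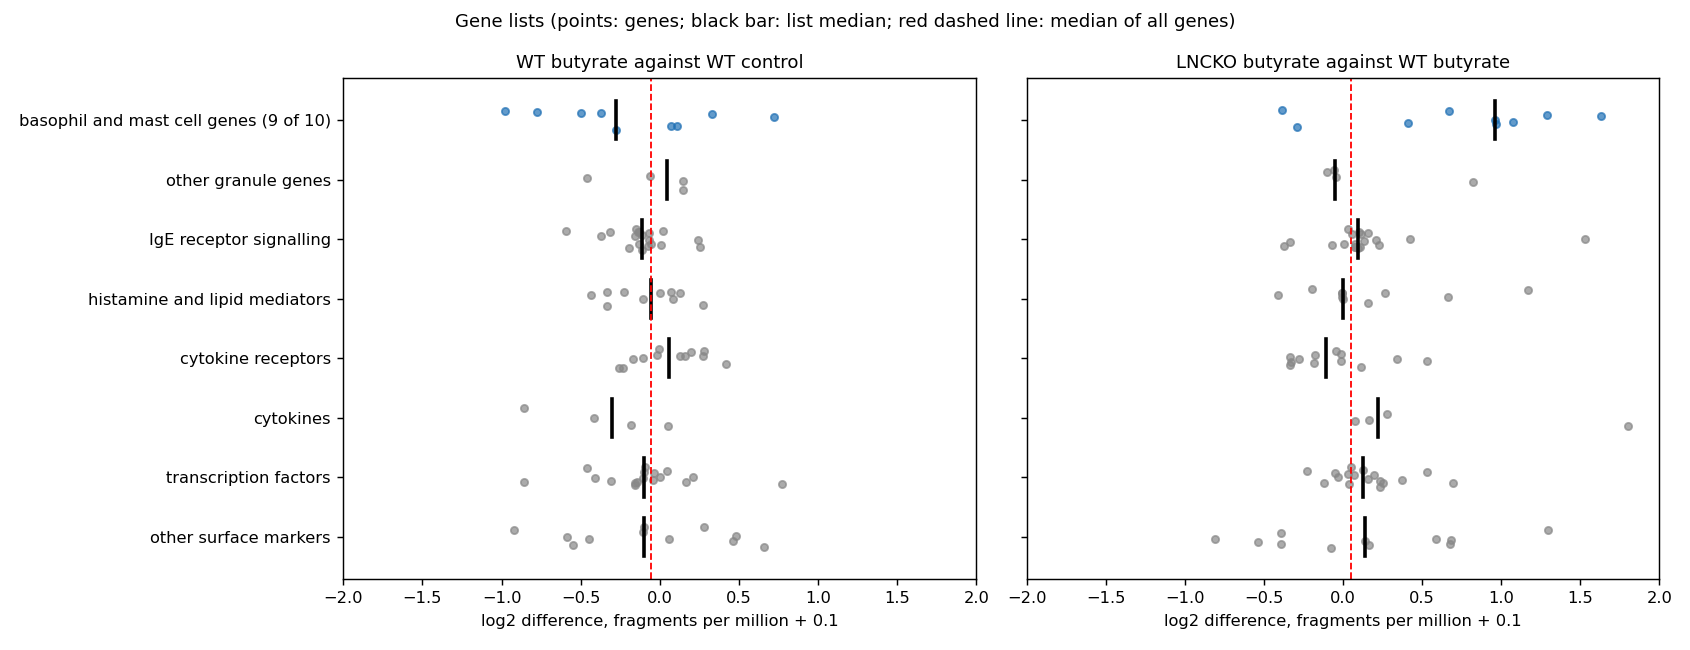
Log2 differences of the genes of 8 lists for WT butyrate against WT control (left) and LNCKO butyrate against WT butyrate (right), with 1 point per gene counted. Black bars give list medians and the red dashed line the median of all genes. The basophil and mast cell genes lie at a median of -0.28 on the left and 0.96 on the right, and the medians of the other lists lie between -0.30 and 0.22.

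The genes most like Mcpt8 were sought among genes outside the set with a mean of at least 10 fpm. The measure was the root mean square distance of their centred log2 values over the 4 libraries. The 5 nearest were Flrt2 (0.14), Nr4a1 (0.14), Rnf128 (0.22), Spon1 (0.25) and Lpl (0.27). Nr4a1, an immediate early nuclear receptor, was at 17.2, 10.5, 33.3 and 25.3 fpm. The 5 nearest to Cpa3 were Lpl (0.06), Slc13a3 (0.06), Tgfb3 (0.10), Sox4 (0.10) and Serpina3g (0.11). Within the set, Prss34 and Cd200r3 were the closest pair, at a distance of 0.12, and Mcpt8 and Hdc were the farthest apart, at 0.83. Mcpt8 and Cpa3 were at a distance of 0.254, so Cpa3 was nearer to Mcpt8 than Lpl was. These distances rest on 4 libraries that all genes share and only describe their values.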

How the data were processed

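The authors deposited FPKM values of 16375 genes in 4 libraries. According to the submitters' processing notes, the tools included STAR 2.5.0c, Picard 1.126, bedtools 2.17.0, HTSeq 0.6.0 and DESeq2 3.0, with GRCm38 and mm10 as builds. Extraction and platform differ between the methods (TRIzol, MGISEQ-2000) and the labels (RNeasy, TruSeq, Illumina). Whole fragments were recovered from the deposited FPKM as FPKM times the gene's genomic span (GENCODE M21) times the library total. Of 16342 matched genes, 98.5% were whole within 0.02 fragments in all 4 libraries, as were all 10 genes described, against 7.0% with exon lengths. A gene's span includes introns, so levels between genes are given per kilobase of exon.

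Fragments per 1000000 plus 0.1 were compared as log2 values in genes with a mean of at least 1. Ratios are plain ratios, with exact 95% binomial intervals conditional on the sum of both counts, which cover counting error only. Fragments carry no molecular identifiers. Steps were tested on simulated data. The genes, lists, bounds and motifs were chosen with earlier results of these data known. The text names the 10 genes, genes of the lists, and the 5 genes outside the set nearest to Mcpt8 and to Cpa3. It also names genes chosen after their values were seen, which is said there. Computations ran in Python 3.11.15 with scipy 1.17.1, numpy 2.4.6 and pandas 2.3.3, and plots in matplotlib 3.10.9. Alternatives were other pseudocounts and filters, median-ratio scaling, log2 of FPKM + 1 and, added after seeing the data, a 1.5-fold bound.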

Additional observations from a re-analysis of the deposited data

Results flagged for a closer look

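Kit was the gene of the set whose butyrate ratios lay on opposite sides of 1 in the genotypes with both counting intervals clear of 1. The ratio of butyrate to control was 1.08 in WT and 0.784 in LNCKO. The difference between these ratios was not tested, since each group holds 1 library.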

How the results depend on the processing

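No paired analysis was possible because each group holds 1 library, and no library could be left out for the same reason. On the log2(FPKM + 1) scale, where the filter of a mean FPKM of 1 left 5 of the 10 genes, the median change with butyrate in WT was 0.033 in place of -0.28, 0 genes were at least 2-fold higher with butyrate in LNCKO, and under butyrate 1 gene was at least 2-fold higher in LNCKO than in WT, with a median of 0.67. The FPKM divides by the whole span, so a pseudocount of 1 weighs most on long genes. Without a filter on low values, which adds Fcer1a, the median difference under butyrate was 0.81. With a 1.5-fold bound, added after seeing the data, 1 gene was higher and 2 were lower with butyrate in WT, 4 were higher in LNCKO than in WT without butyrate, and 6 were higher in LNCKO than in WT under butyrate. Of 250 values of single genes under 6 alternatives, 240 moved by less than the counting interval, 10 moved by more, all on the log2(FPKM + 1) scale, and 0 changed sign. Fcer1a, with 22 to 38 fragments, was the gene most limited by depth.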

Other observations

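Ms4a2 lies on chromosome 19 with other genes of the Ms4a family of membrane proteins, which were looked at after its values had been seen. Of 12 other Ms4a genes with a mean of at least 1 fragment per 1000000, the log2 change with butyrate in LNCKO ran from -0.12 to 0.63, beside 1.22 for Ms4a2. In WT it ran from -0.41 for Ms4a3, a gene of granulocyte precursors, to 0.85 for Ms4a4b, beside 0.72 for Ms4a2. Between LNCKO and WT under butyrate it ran from -0.49 for Ms4a4b to 0.41 for Ms4a3, beside 1.07 for Ms4a2. The B cell gene Ms4a1 was at 305 to 340 fragments per 1000000 in the 4 libraries.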
